A study of Mus musculus with 6 samples.

Results

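The mitochondrial carrier family was followed in mouse hearts with and without Cre acting on floxed alleles of PHD2 and PHD3, the oxygen-sensing prolyl hydroxylases. Its members were taken as every protein-coding gene with a symbol that begins with Slc25a, plus Ucp1, Ucp2 and Ucp3, whose RefSeq accession stood on the array. This gave 50 genes with 60 probes, of 20128 named genes and 55681 distinct probes in all. The 3 control hearts carried the genotype PHD2/3f/f; Cre-/- and the other 3, here called the KO-labelled hearts, carried PHD2/3f/f; Cre+/-. All 6 mice were of strain C57/B6 and 8 weeks old, and both groups carried the floxed alleles, so the groups differ in Cre itself as well as in what it deletes. Which promoter drives Cre, in which cells it acts and which exons it removes are not given in the labels. Total RNA of each heart was hybridised with Cy3 to 1 Agilent mouse expression array, and the labels call the hearts biological replicates.

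Mitochondrial carriers are small proteins of the inner mitochondrial membrane that swap or import metabolites, nucleotides, phosphate, cofactors and metal ions between cytosol and matrix. In heart muscle they pass ADP in and ATP out, bring in phosphate, acylcarnitines and the reducing equivalents of the malate-aspartate shuttle, and so link the respiratory chain to contraction. The uncoupling proteins belong to the same family, and Ucp1, the heat-producing proton carrier, is the classic gene of brown fat.

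Signals are given as log2 of the background-subtracted brightness minus the 75th percentile of the array, so that 0 is the brightness of a probe at that percentile and a difference of 1 is a 2-fold change. On the 6 arrays 46.3% to 51.0% of 55608 usable probes lay well above background by the scanner software's flag, and 0 spots were saturated. Egln1, the PHD2 gene, was lower in KO-labelled hearts (log2 difference -1.23 ± 0.21 SE), and Egln3, the PHD3 gene, was higher (1.98 ± 0.17 SE), so the second target went against the label. The position of these probes against the removed exons is not given, and directions below are between hearts as labelled. Markers of other cells also differed between groups. Of 7 cardiomyocyte markers 7 were lower, and their summed linear signal ranged from 8550 to 11800 in controls and from 5580 to 6940 in KO-labelled hearts, in units of the array's 75th percentile. The tested markers of fibroblasts (6 of 8 higher), macrophages (4 of 7 higher, 1 lower) and cycling cells (7 of 7 higher) moved mostly the other way, with summed signals of 410 to 757 against 1040 to 1170, 66.2 to 104 against 125 to 204, and 3.92 to 8.12 against 36.5 to 44.9. Of 8 endothelial markers 0 passed and of 4 tested lymphocyte markers 2 were higher. The part of these shifts in the carrier values was not tested. In whole hearts, fewer cells of a type and less RNA per cell cannot be told apart.

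Of the 50 carrier genes, 39 were tested, because the scanner flag put them well above background in all 3 hearts of 1 or both groups. By limma, with p-values adjusted (Benjamini-Hochberg) over all 20020 genes and unnamed features, 20 of these 39 fell in KO-labelled hearts, 4 rose and 15 did not pass an adjusted p of 0.05; with scaling on cardiomyocyte markers, which raises all genes alike, the counts were 8 lower and 15 higher. Among all genes and features 39.1% passed, 23.0% lower and 16.1% higher, beside 51.3% lower and 10.3% higher among the tested carriers. The median log2 difference was -0.51 for the carriers and -0.11 for all genes and features. The 24 of 39 tested carriers that passed were also those whose groups did not overlap. Among all genes and features, passing or not, the groups did not overlap in 55.9%. A lack of overlap, also where named below, is thus common on these arrays. Since the filter asks for signal in 1 group only, these counts do not describe the 11 carriers left out by it. The lower count includes Slc25a22, which met the filter in the controls only. The falls ranged from 1.43-fold to 4.56-fold, with 11 of at least 2-fold, and the rises from 1.38-fold to 2.79-fold.

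The counts depended on the hearts and on the scaling. Without control replicate 1, 11 carriers were lower and 2 higher, beside 10.1% lower and 9.19% higher among all genes and features. Without control replicate 3, 14 were lower and 2 higher, beside 10.6% and 9.05%. All calls thus dropped too, from 39.1% to 19.3% and 19.7%. When the arrays were set level on the 7 cardiomyocyte markers, an alternative added after the data were seen that raised every log2 difference by 0.80, 8 of 39 carriers were lower and 15 higher. Among all genes and features 4.1% were then lower and 60.9% higher, so that 93.7% of all calls were higher against 41.1% as scaled here. The carriers' median minus that of all genes and features was -0.40 under both scalings, which a uniform shift cannot change. It was -0.33 with quantile scaling, -0.34 with normexp background correction, -0.37 with cyclic loess and -0.50 with no filter on dim probes. Cyclic loess (shift of the median of all genes 0.13, 54.4% of all calls higher) and spike-in scaling (shift 0.23, 58.3% higher) gave 20 lower and 4 higher carriers and 14 lower and 3 higher carriers. The 7 lost with spike-in scaling were Slc25a14, Slc25a16, Slc25a27, Slc25a28, Slc25a39, Slc25a46 and Slc25a51. KO-labelled replicate 1 had the lowest KO-labelled signal for 16 of the 20 carriers that fell, and control replicate 2 the lowest control signal for 14. The same hearts had the lowest summed cardiomyocyte signal of their groups.

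**Figure D1:**
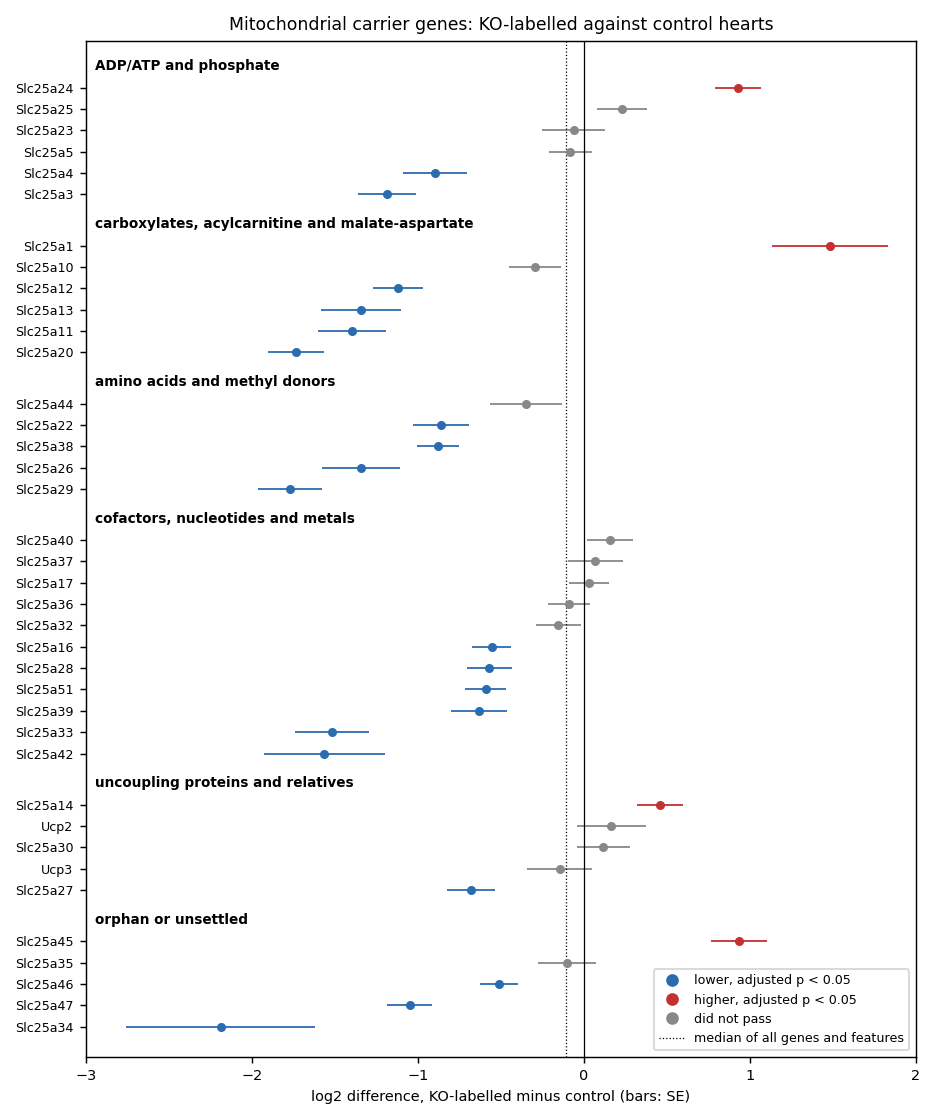
Log2 difference between KO-labelled and control hearts (x axis, points with SE, n = 3 hearts each) for the tested carrier genes named here, grouped by what they carry. The 20 genes in blue fell and the 4 in red rose as scaled to the array's 75th percentile. With scaling on cardiomyocyte markers the counts are 8 and 15, beside 4.1% lower and 60.9% higher among all genes and features.

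Of 6 tested carriers that serve ATP synthesis 2 fell, 1 rose and 3 did not pass. Slc25a4 (NM_007450) encodes ANT1, the ADP/ATP exchanger of muscle. Its log2 signal was 11.11, 10.64 and 11.05 in the control hearts and 9.73, 10.23 and 10.13 in the KO-labelled hearts. All 3 KO-labelled hearts lay below all controls. The fall was 1.86-fold, a difference of -0.90 ± 0.19 SE (adjusted p = 0.0140). The call was lost without control replicate 1 (adjusted p = 0.0581) or control replicate 3 (adjusted p = 0.0576), and the difference was -0.40 with quantile scaling and -0.10 with scaling on cardiomyocyte markers.

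Slc25a5 (NM_007451) encodes ANT2, the ADP/ATP exchanger common in dividing cells. It had 4.77, 4.45 and 4.68 in controls and 4.64, 4.47 and 4.55 in KO-labelled hearts, so the groups overlapped (log2 difference -0.08 ± 0.13 SE, adjusted p = 0.636). With scaling on cardiomyocyte markers its difference was 0.72. A scaling by 1 factor per array leaves the balance of the pair as it is. Slc25a5 minus Slc25a4 was -6.34, -6.18 and -6.36 in controls and -5.09, -5.76 and -5.59 in KO-labelled hearts. It was higher in all 3 KO-labelled hearts, by 0.81 on the log2 scale (exact permutation test, 2-sided, p = 0.10, the smallest that 3 against 3 hearts can give; 0.12 adjusted over 6 pairs). With quantile scaling, which is not of that kind, the shift was 0.50. Slc25a31, the germ cell isoform ANT4, was at background in every heart.

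Slc25a3 (NM_133668) imports the phosphate that ATP synthase consumes. It had 7.15, 6.76 and 7.13 in controls and 5.55, 5.99 and 5.93 in KO-labelled hearts, again with no overlap. The fall was 2.28-fold, a difference of -1.19 ± 0.18 SE (adjusted p = 0.00480), and its other probe had -1.29. It was among the 8 carriers that remained lower with scaling on cardiomyocyte markers, at -0.39. Of 19 genes of ATP synthase and its partners, the downstream user of both carriers, 17 fell and 0 rose, with a median difference of -0.97. They included Dmac2l (-1.14), Atp5pb (-1.01) and Atp5g3 (-1.09).

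The ATP-Mg/phosphate carriers, of which Slc25a23, Slc25a24 and Slc25a25 are calcium-regulated, set the total of adenine nucleotides in the matrix. Slc25a24 (NM_172685) rose 1.90-fold, from 0.09, 0.33 and 0.11 in controls to 1.28, 0.96 and 1.07 (log2 difference 0.93 ± 0.14 SE, adjusted p = 0.00482). It passed under all 19 alternatives run. Slc25a25 (0.23) and Slc25a23 (-0.06) did not pass, and Slc25a41 was not well above background. Slc25a24 minus Slc25a23 was higher by 0.99 in KO-labelled hearts (exact permutation p = 0.10), with the groups apart.

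**Figure D2:**
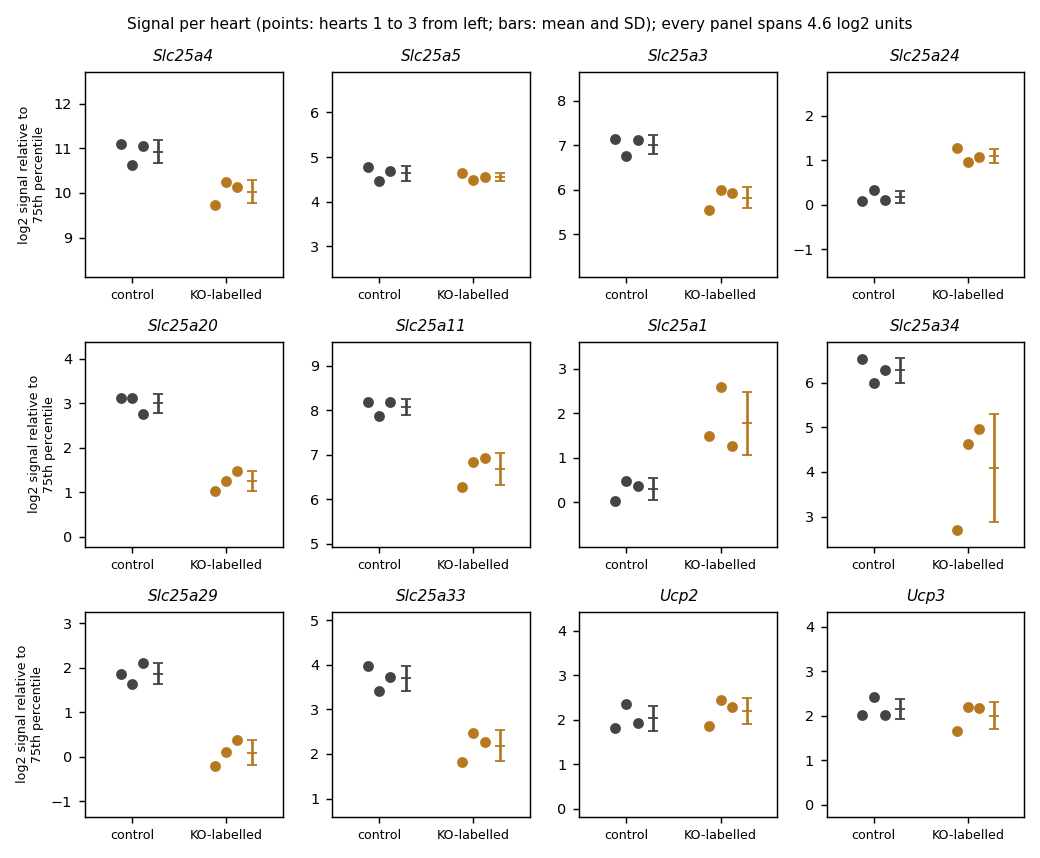
Log2 signal minus that of the 75th percentile (y axis, 4.6 units in each panel) of 12 carrier genes in each heart, with mean and SD of 3 hearts per group beside the points. KO-labelled hearts lie below all controls for Slc25a4, Slc25a3, Slc25a20, Slc25a11, Slc25a34, Slc25a29 and Slc25a33, above them for Slc25a24 and Slc25a1, and among them for Slc25a5, Ucp2 and Ucp3.

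Carriers of fatty acid and malate-aspartate traffic fell together, while the citrate carrier rose. Of 6 tested genes, 4 fell, 1 rose and 1 did not pass, with a median of -1.23. Slc25a20 (NM_020520) is the carnitine/acylcarnitine carrier that brings long-chain fatty acids to oxidation. It went from 3.11, 3.12 and 2.75 in controls to 1.03, 1.25 and 1.48 in KO-labelled hearts. The highest KO-labelled heart lay more than 1 log2 unit below the lowest control. The fall was 3.33-fold (log2 difference -1.74 ± 0.17 SE, adjusted p = 0.00226) and passed under all 19 alternatives, at -0.94 with scaling on cardiomyocyte markers. In the carnitine system around it, 7 of 11 tested genes fell and 1 rose. The falls included the carnitine acetyltransferase gene Crat (-1.76), Tmlhe (-0.94), the first enzyme of carnitine synthesis, and the inner-membrane transferase gene Cpt2 (-1.68). The rise was Cpt1c (1.14), the brain isoform of the outer transferase.

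Slc25a11 exchanges oxoglutarate for malate, and Slc25a12 (aralar) and Slc25a13 (citrin) exchange aspartate for glutamate; together they carry the malate-aspartate shuttle. Slc25a11 had 8.18, 7.88 and 8.20 in controls and 6.28, 6.84 and 6.94 in KO-labelled hearts, which is 2.64-fold lower (-1.40 ± 0.21 SE, adjusted p = 0.00477). Slc25a12 had 5.80, 5.57 and 5.78 against 4.35, 4.76 and 4.68, 2.17-fold lower (adjusted p = 0.00405). Slc25a13 had 4.87, 4.41 and 4.88 against 2.91, 3.57 and 3.65, 2.54-fold lower (adjusted p = 0.00802). Each of these carriers was lower in all 3 KO-labelled hearts, with replicate 1 lowest. Slc25a13 minus Slc25a12 was -0.94, -1.16 and -0.90 in controls and -1.44, -1.19 and -1.03 in KO-labelled hearts, which overlapped (change in balance -0.22, exact permutation p = 0.20). With scaling on cardiomyocyte markers Slc25a11 (-0.60) and Slc25a13 (-0.54) still passed and Slc25a12 (-0.32, adjusted p = 0.0721) did not. Of 13 enzymes that work with these carriers, 9 fell, 1 rose and 3 did not pass. The cytosolic aspartate aminotransferase gene Got1 (-1.36) and the mitochondrial isocitrate dehydrogenase gene Idh2 (-1.47) fell, and the malic enzyme gene Me2 (1.03) rose.

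Slc25a1 (NM_153150) exports citrate, the source of cytosolic acetyl-CoA. It had 0.02, 0.49 and 0.37 in controls and 1.49, 2.58 and 1.26 in KO-labelled hearts. All KO-labelled hearts lay above the controls, with replicate 2 well above the other two. The rise was 2.79-fold (log2 difference 1.48 ± 0.35 SE, adjusted p = 0.0184), and the call was lost without control replicate 1 (1.35, adjusted p = 0.0697), without control replicate 3 (1.52, adjusted p = 0.0571) and without a filter on dim probes (adjusted p = 0.0535). Acly, which cleaves the exported citrate, had a difference of 0.60 and did not pass (adjusted p = 0.206). The dicarboxylate carrier gene Slc25a10 did not pass (-0.29), and the oxodicarboxylate carrier gene Slc25a21 was not well above background.

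Of 5 tested carriers of amino acids and methyl donors, 4 fell and 0 rose. Slc25a29 (NM_181328) carries basic amino acids. It had 1.86, 1.64 and 2.11 in controls and -0.20, 0.11 and 0.37 in KO-labelled hearts, far apart and with no overlap. The fall was 3.41-fold (log2 difference -1.77 ± 0.19 SE, adjusted p = 0.00260). Slc25a26 imports S-adenosylmethionine, the methyl donor. It fell 2.54-fold (-1.35 ± 0.24 SE), and its other probe had -1.50. The call was lost with scaling on cardiomyocyte markers (-0.55, adjusted p = 0.0547). Slc25a38, the glycine carrier that feeds haem synthesis, fell 1.84-fold (-0.88 ± 0.13 SE) as scaled here and had -0.08 with scaling on cardiomyocyte markers. The 3 tested erythroid markers did not pass (median -0.34), with a summed signal of 602 to 973 in controls and 485 to 700 in KO-labelled hearts; their part in the values of Slc25a38 was not tested.

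The glutamate carrier gene Slc25a22 was well above background in all 3 controls (-3.10, -3.23 and -2.88) and in 0 of 3 KO-labelled hearts (-4.08, -4.08 and -3.64). The measured difference was -0.86 (adjusted p = 0.0107), which is 1.82-fold lower as processed here. Slc25a22 entered the test only through the controls, the group where it was brighter. Its call and adjusted p thus depend on a filter that favours a fall for such a gene. Since the KO-labelled signals were not well above background, the size is not exact. They lay above the faintest probe flagged above background on their arrays, so setting a floor there left the difference as measured. The call was lost with normexp background correction (-0.29, adjusted p = 0.0699) and with scaling on cardiomyocyte markers (-0.06, adjusted p = 0.757). Slc25a44, the carrier of branched-chain amino acids, had -0.35 and -0.44 by its 2 probes and did not pass. Slc25a15 and Slc25a2, which carry ornithine, and the glutamate carrier gene Slc25a18 stayed at background in all 6 hearts by the scanner flag. Among 14 partner enzymes 4 rose and 6 fell. The one-carbon enzyme genes Mthfd2 (1.90) and Mthfd1l (1.51) rose and the proline dehydrogenase gene Prodh (-2.01) fell.

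Of 12 carriers of cofactors, nucleotides and metals, all 12 were tested, 6 fell and 0 rose. Slc25a33 and Slc25a36 both carry pyrimidine nucleotides, used to make mitochondrial DNA and RNA. Slc25a33 had 3.97, 3.41 and 3.73 in controls and 1.81, 2.48 and 2.27 in KO-labelled hearts, 2.86-fold lower (-1.52 ± 0.22 SE, adjusted p = 0.00477), and its other probe had -1.56. Slc25a36 had 0.83, 0.75 and 0.94 against 0.62, 0.72 and 0.91, with overlap (-0.09 ± 0.13 SE). Slc25a36 minus Slc25a33 was higher in all 3 KO-labelled hearts, by 1.43, the largest shift in balance among the 6 pairs compared (exact permutation p = 0.10, 0.12 adjusted), which does not pass 0.05.

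Slc25a42, a carrier of coenzyme A, had 4.83, 4.20 and 4.57 in controls and 2.15, 3.45 and 3.30 in KO-labelled hearts. The fall was 2.96-fold (-1.57 ± 0.36 SE, adjusted p = 0.0175), and replicate 1 lay lowest. The call was lost without control replicate 1 (-1.42, adjusted p = 0.0669) or control replicate 3 (-1.55, adjusted p = 0.0602). The related gene Slc25a16 fell by 0.56 on the log2 scale. Slc25a51, which brings NAD into the matrix, fell by 0.59 (other probe -0.60), and Slc25a39, a glutathione carrier, fell by 0.63. These 3 small falls turned to differences of 0.24, 0.21 and 0.16 with scaling on cardiomyocyte markers and did not pass there. Without control replicate 1 none of them passed (adjusted p = 0.0582, 0.0542 and 0.101). Slc25a51 was also lost without control replicate 3 (adjusted p = 0.0574), Slc25a16 without KO-labelled replicate 3 (adjusted p = 0.0515), and Slc25a39 without control replicate 2 (adjusted p = 0.0608) and KO-labelled replicates 2 and 3 (adjusted p = 0.0719 and 0.0765). Slc25a40, the other glutathione carrier, had 0.16 and did not pass.

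The mitoferrins import iron for haem and iron-sulphur clusters. Slc25a28 (mitoferrin 2), the form of most tissues, had 3.14, 3.04 and 3.04 in controls and 2.33, 2.73 and 2.45 in KO-labelled hearts (-0.57 ± 0.14 SE, adjusted p = 0.0196). All KO-labelled hearts were lower, but the difference was 0.23 with scaling on cardiomyocyte markers, and the call was lost without control replicate 1 (adjusted p = 0.0770), control replicate 3 (adjusted p = 0.0661) or KO-labelled replicate 3 (adjusted p = 0.0705). Slc25a37 (mitoferrin 1), the form of red cell precursors, had 3.35, 3.08 and 3.42 against 3.61, 3.16 and 3.28 (0.07 ± 0.17 SE), and its other probe had 0.33 and did not pass either. Slc25a37 minus Slc25a28 was higher by 0.64 in KO-labelled hearts (exact permutation p = 0.10). Of 16 partners in iron-sulphur and haem assembly, 11 fell and 0 rose, among them Isca1 (-1.16), Nfs1 (-1.02) and Fdx1 (-1.03). The peroxisomal carrier gene Slc25a17 (0.03) and the folate and FAD carrier gene Slc25a32 (-0.15) did not pass.

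Among the uncoupling proteins and their relatives 1 of 5 tested genes rose and 1 fell. That is 20% each way, near the 23.0% lower and 16.1% higher of all genes and features. Ucp2 and Ucp3 did not pass by the probes that stood for them. Ucp3, the muscle form, had 2.02, 2.41 and 2.03 in controls and 1.65, 2.20 and 2.16 in KO-labelled hearts (-0.15 ± 0.20 SE). Its other probe, with the same accession, had 0.01, -0.07 and -1.03 against -5.88, -2.75 and -1.80, a measured difference of -3.11. In KO-labelled replicate 1 it was not above background, so the size is not exact. In the fit over every probe this dimmer one passed (adjusted p = 0.0463), with no overlap between groups. The 2 probes of Ucp3 thus disagree, and what each of them detects was not tested. Ucp2, known from immune cells and many tissues, had 1.81, 2.35 and 1.94 in controls and 1.87, 2.44 and 2.28 in KO-labelled hearts (0.17 ± 0.21 SE). Ucp2 minus Ucp3 was -0.12 ± 0.08 in controls and 0.19 ± 0.07 in KO-labelled hearts (SD, n = 3 each; exact permutation p = 0.10), by the brighter Ucp3 probe, a shift of 0.31. Slc25a14 (UCP5) rose by 0.46 (adjusted p = 0.0386), and its call was lost when any heart other than control replicate 2 was left out (adjusted p = 0.0625 to 0.133). Slc25a27 (UCP4) fell by 0.68 (adjusted p = 0.0129), was lost without control replicate 1 (adjusted p = 0.0566), and had 0.12 with scaling on cardiomyocyte markers. Slc25a30 did not pass (0.12).

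Ucp1 gave the widest spread of any carrier. Its signal was -5.54, -6.09 and -5.32 in the control hearts, none of them above background. In the KO-labelled hearts it was 0.22, 4.48 and -5.32, above background in replicates 1 and 2 and not in replicate 3. It was left out by the filter, and with no filter on dim probes its difference was 5.45 ± 2.29 SE and did not pass (adjusted p = 0.189). Fat cell markers differed between single hearts too. Adipoq, the adiponectin gene, had -2.44, -0.42 and 1.92 in controls and -2.10, 3.79 and -1.54 in KO-labelled hearts. Cidec, a lipid droplet gene, had -2.61, -0.78 and 1.93 against -2.73, 3.70 and -2.11, and Plin1, which coats fat droplets, had -3.53, -2.44 and -0.93 against -2.97, 2.06 and -3.28. Of 7 tested fat cell markers, drawn up as a list for brown fat, 0 passed, with a summed signal of 189 to 286 in controls and 161 to 342 in KO-labelled hearts. Fabp4 was the brightest of them (mean 7.66 in controls and 7.34 in KO-labelled hearts), so the sum mostly follows that gene. KO-labelled replicate 2 was highest in Ucp1 and in Adipoq, Cidec and Plin1, and control replicate 3 was next in these 3 genes with Ucp1 at background. The other 4 tested markers of the list differed among themselves in the same hearts. Cidea was above all controls in all 3 KO-labelled hearts (5.76, 6.10 and 5.76), also in replicate 3, where Ucp1 was at background. Fabp4 was highest in KO-labelled replicate 2 (7.92) and lowest in replicate 1 (6.73). Ppargc1b was below all controls in all 3 KO-labelled hearts (-5.54, -2.39 and -2.64). Adrb3 was -4.58, -3.07 and -3.98 there against -2.93, -3.20 and -2.55 in controls. The part of fat tissue in the Ucp1 signal was not tested.

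**Figure D3:**
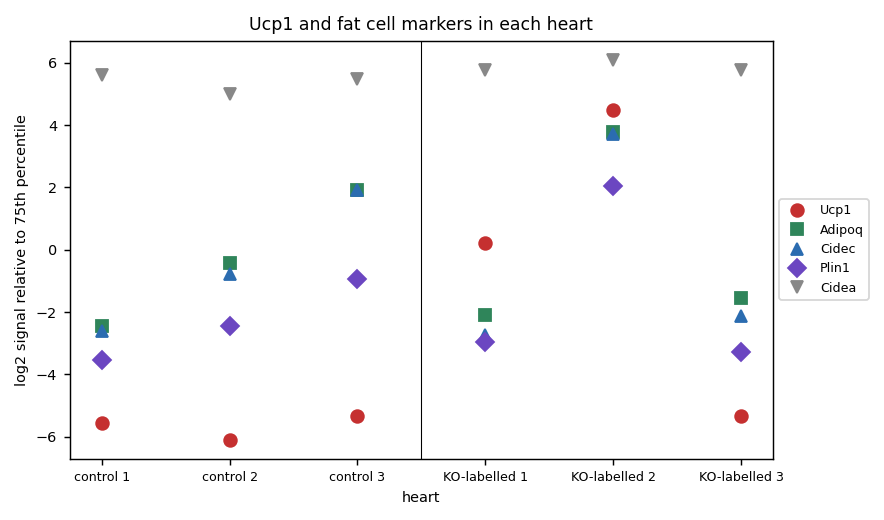
Log2 signal minus that of the 75th percentile (y axis) of Ucp1 and 4 fat cell marker genes in each of the 6 hearts (x axis). Ucp1 reaches 4.48 in KO-labelled replicate 2 and 0.22 in replicate 1 and lies at -5.32 or below in the other 4 hearts. Adipoq, Cidec and Plin1 are highest in KO-labelled replicate 2 and next in control replicate 3. In KO-labelled replicate 1 they are at -2.10, -2.73 and -2.97. Cidea is above all controls in all 3 KO-labelled hearts. The tested markers Fabp4, Adrb3 and Ppargc1b are not drawn.

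The carriers with no settled substrate held the family's largest fall. Slc25a34 (NM_001013780) had 6.55, 6.0 and 6.29 in control hearts and 2.70, 4.62 and 4.95 in KO-labelled hearts. No hearts overlapped, and replicate 1 lay far below the other KO-labelled hearts. The fall was 4.56-fold (log2 difference -2.19 ± 0.57 SE, adjusted p = 0.0248), and the call was lost without control replicate 1 (-2.06, adjusted p = 0.0851), control replicate 3 (-2.18, adjusted p = 0.0752) or the filter on dim probes (adjusted p = 0.0660). Without KO-labelled replicate 1 the log2 difference of Slc25a34 was -1.49 and passed (adjusted p = 0.00841). It passed with scaling on cardiomyocyte markers (-1.39, adjusted p = 0.0363). The related gene Slc25a35 had -0.10 and did not pass.

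Slc25a47, known as a liver carrier, fell from 0.54, 0.21 and 0.47 to -0.74, -0.67 and -0.53 (log2 difference -1.05 ± 0.14 SE, adjusted p = 0.00366), and had -0.25 with scaling on cardiomyocyte markers (adjusted p = 0.142). Slc25a46, an outer membrane protein that acts in mitochondrial fusion and fission, fell by 0.51 (other probe -0.84). It was lost without control replicate 1 or 3 (adjusted p = 0.0681 and 0.0691) and had 0.28 with scaling on cardiomyocyte markers. Slc25a45 rose 1.92-fold, from -1.03, -0.56 and -0.96 to 0.23, -0.09 and 0.14 (log2 difference 0.94 ± 0.17 SE, adjusted p = 0.00803), and passed under all 19 alternatives. Slc25a43, Slc25a48, Slc25a53 and Slc25a54 stayed at background in all 6 hearts by the scanner flag.

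With the arrays set level on the 7 cardiomyocyte markers, the 8 carriers that passed as lower were Slc25a3, Slc25a11, Slc25a13, Slc25a20, Slc25a29, Slc25a33, Slc25a34 and Slc25a42, and all 8 were also lower as scaled to the 75th percentile. The other 12 that had fallen did not pass, and of the 15 that passed as higher, 4 were the genes that had risen and 11 had not passed before. The markers themselves fell, with a median difference of -0.73, so this scaling reads each carrier against them rather than against the whole array. The partner lists shifted with it. Lower and higher calls became 0 and 2 of 19 for ATP synthase, 5 and 3 of 11 for the carnitine system, and 4 and 4 of 13 for the shuttle enzymes. They became 1 and 6 of 14 for amino acid and one-carbon partners, and 0 and 3 of 16 for iron and haem partners. For the other transport genes and the regulators, described next, they became 3 and 12 of 30, and 3 and 7 of 20. Among all genes and features 4.1% were lower and 60.9% higher under this scaling.

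**Figure D4:**
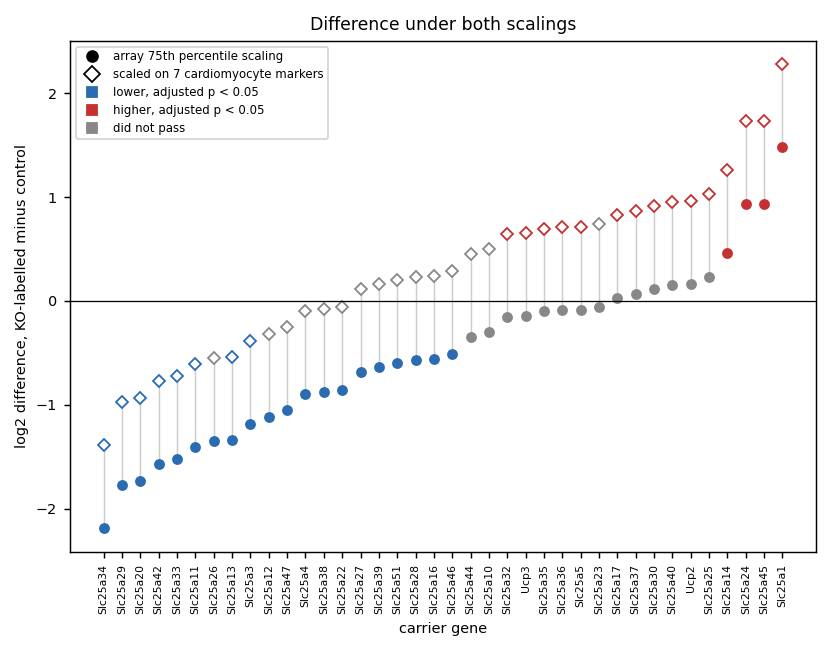
Log2 difference between KO-labelled and control hearts (y axis) of the tested carrier genes named here (x axis, in order of difference) scaled on the array's 75th percentile (filled circles) and on 7 cardiomyocyte markers (open diamonds), coloured by the call under that scaling. Lower calls number 20 and 8, and higher calls 4 and 15. Among all genes and features 23.0% are lower and 16.1% higher under the first scaling. Under the second, which raises all differences alike, 4.1% are lower and 60.9% higher.

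A list of other membrane transport genes, mostly of mitochondria, also fell more often than it rose. Of 30 tested, 16 fell and 4 rose (53.3% and 13.3%), with a median of -0.64. Pxmp2, a peroxisomal channel that the list also holds, had -2.33, Mcur1, a regulator of the calcium uniporter, had -1.13, and Tspo, the outer membrane translocator protein, had 1.92. Of 20 regulators of mitochondrial genes 11 fell and 2 rose. The coactivator gene Ppargc1a (-1.84), the corepressor gene Ncor1 (-0.68) and the receptor gene Esrrb (-1.29) fell.

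**Figure D5:**
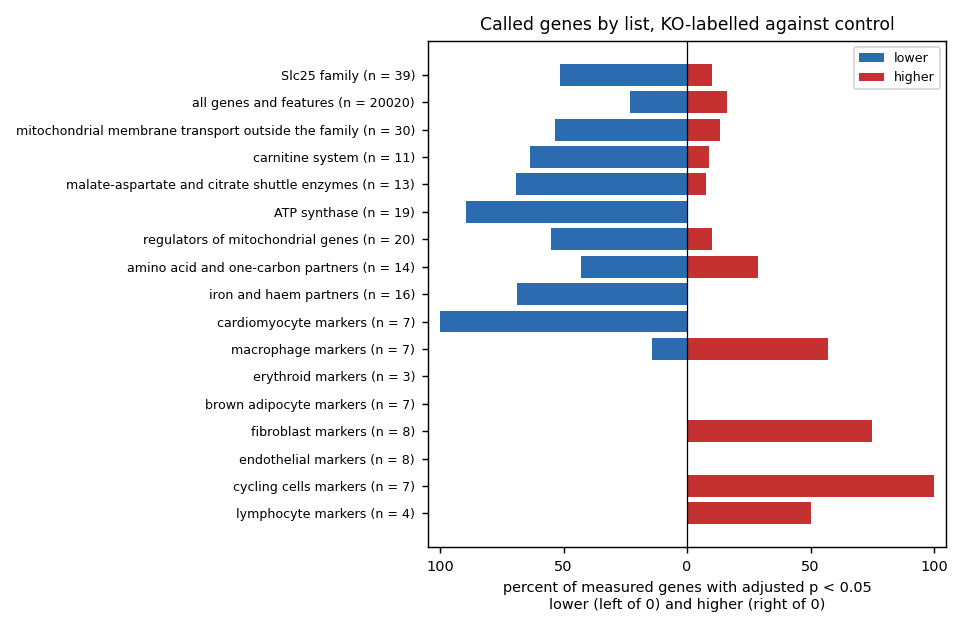
Share of tested genes that passed an adjusted p of 0.05, lower to the left and higher to the right (x axis, percent), for the carrier family, all genes and features, partner lists and cell type markers (y axis, n tested genes). The carrier family shows 51.3% lower and 10.3% higher, beside 23.0% and 16.1% of all genes and features.

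Several members lie side by side in the genome. In the RefSeq gene order of GRCm38.p6 no other protein-coding gene separated Slc25a29 from Slc25a47, Ucp3 from Ucp2, Slc25a41 from Slc25a23, Slc25a54 from Slc25a24, or Slc25a43 from Slc25a5. In the first of these pairs both genes fell, in the second both did not pass, and in the other 3 one gene was not above background.

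RefSeq (GRCm38.p6) gave 49 promoters for 39 of the 50 carriers, read here as the 250 bases before the start. On both strands and with overlapping matches counted, the core of the hypoxia response element, ACGTG or GCGTG, stood in 28 of these 49 promoters (57.1%) and in 38.6% of all 32851 promoters. It was present in 9 of 18 promoters of carriers that fell, 4 of 6 of those that rose and 7 of 13 of those that did not pass. These promoters belong to 16, 4 and 10 genes, so a gene can count more than once. The rest of the 49 promoters belong to carriers that were not tested, and they count in the 57.1%. Among the genes that rose, Slc25a1 and Slc25a14 held the core, and Slc25a24 and Slc25a45 did not. The promoters of Slc25a14 overlap and share matches. The ETS element CCGGAAG was in 6 (12.2%, against 6.91% of all promoters), the half-site AGGTCA in 6 (12.2%, against 14.0%), CCAAT in 21 (42.9%, against 33.8%) and TATAAA in 2 (4.08%, against 12.4%). The estrogen-related receptor element TNAAGGTCA was in 0 and in 1.14% of all promoters. A match is a run of letters and not a bound site.

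The promoter of the citrate carrier gene Slc25a1, which rose, is shown because it held 7 matches to the hypoxia core, a number reached by 0.183% of all promoters, with CACGTG counted on both strands. That of Slc25a36, which did not pass, held 4. Capitals mark the core.
Slc25a1, chr16:17928220-17928469, minus strand: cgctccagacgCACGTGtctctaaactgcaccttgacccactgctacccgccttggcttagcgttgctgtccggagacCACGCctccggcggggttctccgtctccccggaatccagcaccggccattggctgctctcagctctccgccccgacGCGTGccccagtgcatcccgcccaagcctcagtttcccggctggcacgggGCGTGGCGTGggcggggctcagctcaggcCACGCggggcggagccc
Slc25a36, chr9:97111042-97111291, minus strand: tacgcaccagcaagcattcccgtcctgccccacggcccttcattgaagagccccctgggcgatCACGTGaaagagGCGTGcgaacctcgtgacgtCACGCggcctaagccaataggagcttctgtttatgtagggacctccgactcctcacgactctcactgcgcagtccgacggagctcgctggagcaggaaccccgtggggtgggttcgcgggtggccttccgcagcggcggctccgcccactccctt

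The ETS element was in 4 of 18 promoters of carriers that fell and 0 of 6 of those that rose. It was also in 1 of 13 of those that did not pass, that of Slc25a17. A link between element and fall was not tested. The promoters of Slc25a4 and Slc25a20 are shown as carriers of ATP and fatty acid traffic that fell and hold the ETS element, in capitals.
Slc25a4, chr8:46211063-46211312, minus strand: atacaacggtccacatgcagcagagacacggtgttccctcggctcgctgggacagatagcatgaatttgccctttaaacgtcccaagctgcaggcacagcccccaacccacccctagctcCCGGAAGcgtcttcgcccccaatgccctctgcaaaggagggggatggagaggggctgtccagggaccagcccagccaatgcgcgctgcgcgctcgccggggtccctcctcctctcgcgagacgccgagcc
Slc25a20, chr9:108661886-108662135, plus strand: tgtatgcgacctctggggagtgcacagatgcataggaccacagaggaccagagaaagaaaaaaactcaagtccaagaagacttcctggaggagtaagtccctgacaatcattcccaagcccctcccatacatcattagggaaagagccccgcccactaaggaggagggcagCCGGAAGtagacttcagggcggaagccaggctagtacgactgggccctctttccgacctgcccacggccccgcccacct

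The promoters of Slc25a34, with the largest fall, and Ucp3, whose probes disagree, are shown with the half-site AGGTCA or its reverse complement in capitals.
Slc25a34, chr4:141623835-141624084, minus strand: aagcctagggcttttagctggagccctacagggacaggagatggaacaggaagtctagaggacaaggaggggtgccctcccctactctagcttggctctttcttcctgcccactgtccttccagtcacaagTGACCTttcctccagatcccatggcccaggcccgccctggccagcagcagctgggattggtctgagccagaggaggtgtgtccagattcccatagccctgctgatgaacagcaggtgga
Ucp3, chr7:100472741-100472990, plus strand: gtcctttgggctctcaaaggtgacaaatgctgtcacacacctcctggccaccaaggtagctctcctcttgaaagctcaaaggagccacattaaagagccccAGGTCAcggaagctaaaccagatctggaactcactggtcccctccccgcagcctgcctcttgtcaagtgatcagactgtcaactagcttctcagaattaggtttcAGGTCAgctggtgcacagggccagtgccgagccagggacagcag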

How the data were processed

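RNA of 3 control and 3 KO-labelled hearts was read on 1-colour Agilent arrays. The deposited scanner files give intensity values per spot, background-subtracted and detrended within the array by Agilent Feature Extraction 11.0.1.1 per the file headers. Other deposited columns hold flags of that software. The authors' deposited matrix of log2 values served as an alternative only. Its differences between arrays match the scanner signals, its probes are centred (column medians of 0.09, -0.02 and 0.07 in controls and -0.04, -0.05 and -0.02 in KO-labelled hearts), and the steps behind it are not given in the sources used here; the submitters' processing notes name R 3.1.3.

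Outlier spots were dropped, log2 signals of a probe averaged (73 of 55681 probes had none left on some array) and the 75th percentile of each array subtracted. Matching RefSeq accessions to the RefSeq gene list of GRCm38.p6 named 26551 probes. Probes had to lie well above background on all arrays of a group, and the brightest one stood for a gene. Limma 3.58.1 in R 4.3.3 (reading files with the data.table package) was fitted over all 20020 genes and features, with Benjamini-Hochberg adjustment at 0.05. The fit was also run on simulated data with few changed genes and independent noise. That setting differs from these data, where many genes were called, so it does not test the calls given here. Background correction, scaling, filter, probe choice, variance model, array weights, a replicate block and each heart left out were varied. Carrier pairs were compared by exact permutation. The precision is limited by 3 arrays a group. The control and KO-labelled arrays lay in different columns of 1 slide, so position and group cannot be told apart. Each member was named, except 1 tested carrier that is counted but not reported here; of each partner list, the 3 passing genes with the smallest p were, and Cpt1c, Acly, Adipoq, Cidec and Plin1 were named after their values were seen. Members and lists were chosen with earlier results of these data known. The scanner files used here hold no mean signal, so normexp (offset 50) used the median signal in place of the planned column. The labels name a column kit for hearts and, elsewhere, a blood RNA kit with globin depletion.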

Additional observations from a re-analysis of the deposited data

How the results depend on the processing

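Of the 24 carriers that passed, 8 (Slc25a3, Slc25a11, Slc25a13, Slc25a20, Slc25a24, Slc25a29, Slc25a33 and Slc25a45) passed under all 19 alternatives. The count of lower carriers was 20, and 11 to 20 when 1 heart was left out; the count of higher carriers was 4, and 2 to 4. With no filter on dim probes, where 37174 genes and features were tested, 13 were lower and 2 higher, with 6.54% and 5.14% of all lower and higher, and Slc25a31, at background throughout, was among the lower. Array weights, whose estimation stopped before its tolerance, gave 23 lower and 7 higher, with 41.9% of all genes and features lower and 26.6% higher. With the replicate block 13 were lower and 3 higher, with 13.6% and 10.6%. Hearts with the same number did not deviate together (correlations of their deviations from the group means -0.15, -0.125 and -0.0994), so the numbers were not taken as pairs. With scaling on cardiomyocyte markers 8 were lower and 15 higher, with 4.1% and 60.9% of all genes and features. These changed sign: Slc25a5 (0.72), Slc25a36 (0.71), Slc25a32 (0.64), Slc25a16 (0.24), Slc25a28 (0.23), Slc25a51 (0.21), Slc25a39 (0.16), Slc25a35 (0.70), Slc25a46 (0.28), Ucp3 (0.65) and Slc25a27 (0.12), by the uniform shift that this scaling adds. Slc25a10, Slc25a23 and Slc25a44 changed sign too and passed under neither scaling. Normexp, quantile, median, cyclic loess and spike-in scaling, the deposited value table, the stricter filter, the mean of probes and the trended variance gave 14 to 20 lower and 3 or 4 higher carriers. Signal near background limits Slc25a22, the dimmer Ucp3 probe and the 10 carriers not above background on any array.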
